A study of Mus musculus with 5 samples.

Results

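The dentate gyrus (DG) of mice that lived with company and tunnels was compared here directly with the DG of mice that ran, without going through the sedentary control. For every gene, the value of the complex environment library (CE) minus that of the library of all runners (RUN, labelled Exercise) was taken. Members were the genes whose mean over the 5 libraries of the series was at least 5 on the log2 scale, which kept 13550 of the 23420 gene symbols, and 2 of the 5 libraries enter the difference. All mice were male, wild-type and of the outbred CD1 strain, with an age of 4 months in the labels and a younger age in the study's methods, and the whole DG was microdissected after 4 weeks of housing. CE mice lived in groups of 3 with a running disk that was glued in place and with tunnels that were moved daily. RUN mice lived alone with a disk that turned, and locked disk (LD) mice lived alone with a glued disk. The CE, RUN and LD libraries each held pooled RNA of 8 mice. The low runner (L-RUN) and high runner (H-RUN) libraries each held RNA of 4 of the same 8 runners, those with the shortest and the longest running distances. CE and RUN therefore differed in company, in tunnels and in running at once, and these cannot be told apart in the difference between them.

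The DG is the entry to the hippocampus, where granule neurons receive input from the entorhinal cortex and pass it on to the CA3 field, and where new neurons are added in adulthood. Voluntary running and enriched housing are both known to act on this region. Running is best known for promoting the birth of new granule neurons and the supply of growth factors, while social and spatial enrichment is studied for its effects on synapses, on emotional behavior and on the extracellular matrix around neurons.

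Values are regularized log values on the log2 scale, in which the authors had normalized all 5 libraries together and pulled each gene's values towards its mean. The pull is strongest for genes with few reads, so a difference of a low gene is understated. Each group was 1 library, so no difference between CE and RUN has a replicate check and no p-value is given. The depth of the libraries is unknown. The only spread that could be measured is technical: RUN was set against a mixture computed from L-RUN and H-RUN, which gave an SD of 0.036 for a difference between libraries, and 0.022 to 0.047 across 10 bins of expression. This spread holds no difference between mice, since the 3 runner libraries share the same animals. A gene was called higher or lower in CE at a difference of at least 0.3, a 1.23-fold change and 8.23 times the technical SD. The largest residual of RUN from the mixture was 0.28.

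CE and RUN were close over the whole transcriptome. The median difference was 0.00 and the SD over genes 0.09, and 79.8% of the expressed genes lay within 0.1 of 0. In CE, 73 genes were called higher than in RUN, 0.539% of the expressed genes, and 40 were called lower, 0.295%. The difference ran from -1.04 for Ptgds to 0.77 for Fibcd1. Just outside the cut-off stood Slit3, Col23a1 and Sdk2, all at 0.298, and just inside it Hrk at 0.302, Hist1h2bc at -0.302 and Rn45s at -0.3003. At the edge of the filter, Actl10 and Cubn had means of 4.998 and 4.999 and were left out, while Pcdhb6 and Iqcd at 5.0003 and 5.001 were kept. Among the 9870 genes left out by the filter, 0 reached a difference of 0.3, and the largest was 0.24.

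**Figure D1:**
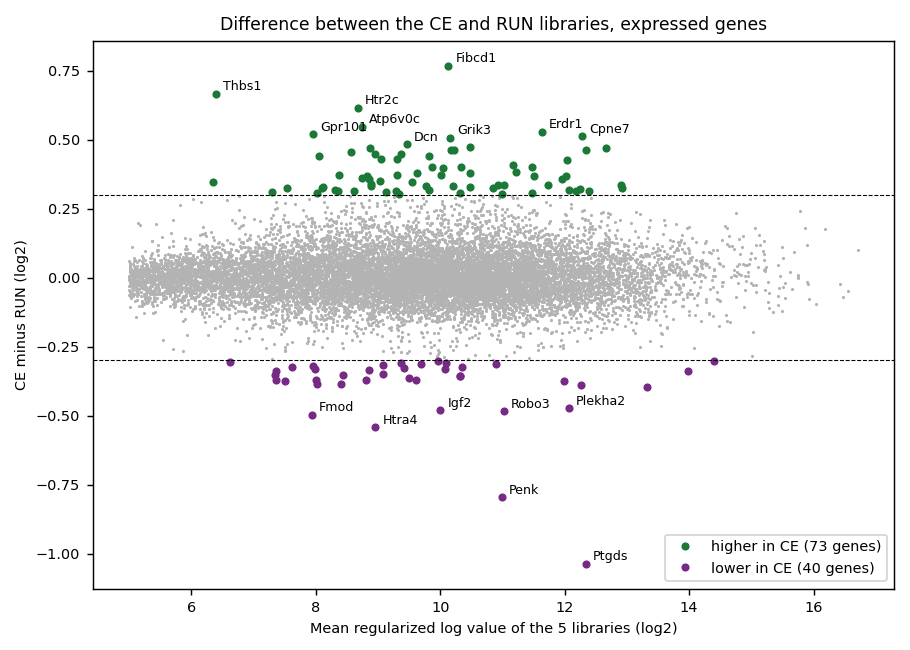
Difference between CE and RUN (log2) plotted against the mean regularized log value of the 5 libraries (log2), with 1 point per expressed gene. Dashed lines mark 0.3 and -0.3, green points the 73 genes called higher in CE and purple points the 40 called lower; Ptgds at -1.04, Penk at -0.80 and Fibcd1 at 0.77 stand farthest from 0.

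The other 3 libraries place these calls. L-RUN and H-RUN differed from each other by at least 0.3 in 1.54% of the expressed genes, in 12 of the 73 genes called higher (16.4%) and in 13 of the 40 called lower (32.5%). Among the genes called lower in CE, the level in runners thus often depended on which runners were pooled. CE was the highest of the 5 libraries for 63 of the 73 genes (86.3%, against 22.9% of all expressed genes) and the lowest for 21 of the 40 (52.5%, against 21.7%). CE and LD were both above all 3 runner libraries in 46 of the 73 genes (63.0%, against 16.2%), and both below them in 28 of the 40 (70.0%, against 15.2%). LD was nearer to CE than to RUN in 35 of the 73 genes (47.9%) and in 35 of the 40 (87.5%), against 50.4% of all. Choosing genes by CE minus RUN favors such patterns by itself, so these shares describe the calls and carry no test.

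Fibcd1 had the largest positive difference. It encodes a membrane receptor that binds acetylated sugars such as chitin and lies at chr2:31813290-31846005 (GRCm38, minus strand). Its value was 10.66 in CE, 10.35 in LD, 9.89 in RUN, 9.83 in H-RUN and 9.90 in L-RUN. CE was highest, LD came next and the 3 runner libraries lay together below both. The difference between CE and RUN was 0.77, a 1.70-fold change, and that between CE and LD 0.31. Fibcd1 is also known as a marker of CA1 pyramidal neurons, which adjoin the DG. Of the 10 CA1 markers, 2 were called higher in CE, Fibcd1 and Nov (9.17 in CE and 8.70 in RUN, a secreted matricellular protein), and 0 lower. Of all expressed genes, 0.539% were called higher and 0.295% lower. These markers were chosen with earlier results of these data known. The list had a median of 0.11 against 0.00 for all expressed genes. Its median was 0.32 when CE was set against L-RUN and 0.00 when set against H-RUN, and the CA1 marker Wfs1 was 10.51 in CE, 10.41 in RUN, 10.62 in H-RUN and 10.11 in L-RUN. The part of CA1 tissue in the Fibcd1 difference was not tested. In pooled tissue, fewer cells of a type and less RNA per cell cannot be told apart.

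Thbs1, which encodes the secreted glycoprotein thrombospondin 1, released by astrocytes and known to promote the formation of synapses, followed a different order. Its value was 6.92 in CE, against 6.24 in LD, 6.26 in RUN, 6.32 in H-RUN and 6.24 in L-RUN. Only the CE library stood apart, by 0.67 from RUN, and the runner libraries lay near the sedentary one. Atp6v0c, the subunit that forms the proton-conducting ring of the vacuolar ATPase, had the same order, with 9.18 in CE, 8.58 in LD, 8.63 in RUN, 8.65 in H-RUN and 8.65 in L-RUN. It was the one member of the vacuolar ATPase list called, 1 of 18 expressed, where 0.834% of all expressed genes were called in either direction. The median of the list was -0.03. The annotation holds pseudogene copies of Atp6v0c, so reads may have been split between them. Cpne7, a calcium-dependent phospholipid binding protein, was 12.68 in CE and 12.20 in LD, with 12.17 in RUN, 12.08 in H-RUN and 12.27 in L-RUN. Timp2, an inhibitor of matrix metalloproteinases, was 13.01 in CE, 12.64 in LD, 12.53 in RUN, 12.48 in H-RUN and 12.68 in L-RUN. For both, the difference between CE and LD (0.48 and 0.37) made up most of that between CE and RUN (0.51 and 0.47). Hrh3, the presynaptic histamine receptor, was 9.90 in CE against 9.51 in LD and 9.52 in RUN.

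In a further set of genes, CE lay near LD and the runners lay below both. Grik3, which encodes the kainate receptor subunit GluK3, was 10.47 in CE, 10.42 in LD, 9.96 in RUN, 9.88 in H-RUN and 10.05 in L-RUN. Igfbp5, which encodes a secreted protein that binds insulin-like growth factors, was 12.62 in CE, 12.66 in LD, 12.16 in RUN, 12.11 in H-RUN and 12.18 in L-RUN. CE minus LD was 0.05 for Grik3 and -0.04 for Igfbp5, while CE minus RUN was 0.51 and 0.46. Nos1, the neuronal nitric oxide synthase, was 9.19 in CE and 9.32 in LD, against 8.74 in RUN, 8.87 in H-RUN and 8.58 in L-RUN. Parm1, a mucin-like membrane protein, was 8.81 in CE, 8.87 in LD and 8.36 in RUN. Matn2, a filament-forming matrix protein, was 10.09 in CE, 10.17 in LD and 9.69 in RUN. Atp2b4, a calcium pump of the plasma membrane, was 12.29 in CE, 12.20 in LD and 11.86 in RUN. Elfn2, a synaptic adhesion protein with leucine-rich repeats, was 11.42 in CE, 11.42 in LD and 11.01 in RUN. All of these had LD much closer to CE than to RUN.

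Other genes were spread between these orders, and for some the runner pools were not alike. Kit, the receptor for stem cell factor, was 10.57 in CE and 10.30 in LD, with 10.10 in RUN, 10.06 in H-RUN and 10.09 in L-RUN. Htr2c, which encodes the serotonin 2C receptor, was 9.12 in CE, 8.65 in LD, 8.51 in RUN, 8.34 in H-RUN and 8.77 in L-RUN. Gpr101, an orphan receptor, was 8.39 in CE, 7.87 in LD, 7.87 in RUN, 7.56 in H-RUN and 8.10 in L-RUN. Plagl1, an imprinted zinc finger transcription factor, was 10.52 in CE, 10.08 in LD, 10.06 in RUN, 9.89 in H-RUN and 10.32 in L-RUN. In these last 3 genes the L-RUN and H-RUN pools were 0.43 to 0.54 apart, and CE was above both. Dcn, the small proteoglycan decorin, was 9.82 in CE, 9.45 in LD, 9.34 in RUN, 8.93 in H-RUN and 9.74 in L-RUN, so the L-RUN pool came within 0.08 of CE. Erdr1, with values of 12.03 in CE and 11.50 in RUN, and the processed pseudogene Gm12070, with 10.78 and 10.31, complete the 15 genes of largest positive difference. Reads of a pseudogene can come from its parent gene, so the Gm12070 value is uncertain. For Gm12070, RUN also lay below both L-RUN (10.58) and H-RUN (10.48). CE was 0.20 above L-RUN and 0.297 above H-RUN for it, both short of the cut-off.

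**Figure D2:**
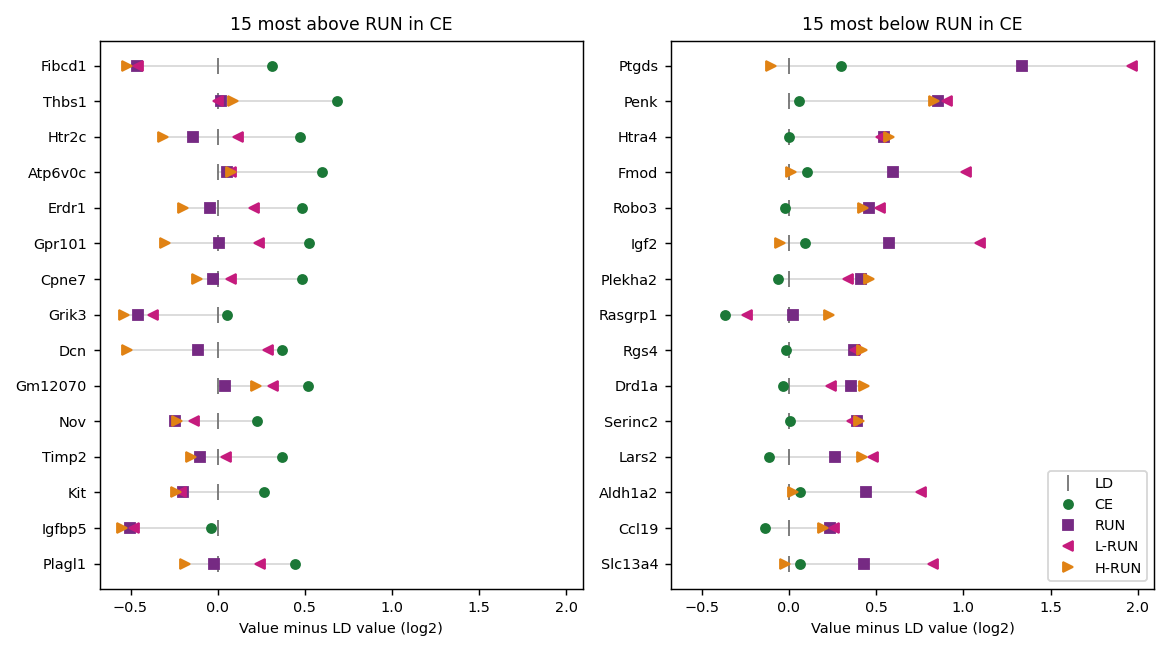
Values of the 15 genes most above RUN in CE (left) and the 15 most below (right), each as a library's value minus the LD value (log2), with LD at 0 and 1 symbol per library. For Thbs1 and Atp6v0c only CE departs from LD, for Grik3 and Igfbp5 the 3 runner libraries do, and for Ptgds, Fmod and Igf2 L-RUN lies far to the right of H-RUN.

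Of the genes lower in CE, the first set was high in both runner pools. Penk encodes proenkephalin, the precursor of the enkephalin opioid peptides, and lies at chr4:4133531-4138819 (GRCm38, minus strand). It was 10.52 in CE and 10.46 in LD, against 11.32 in RUN, 11.29 in H-RUN and 11.37 in L-RUN. The sedentary and the CE value lay together, the runners lay together above them, and the difference between CE and RUN was -0.80, a 1.74-fold change. Htra4, a secreted serine protease, was 8.63 in CE, 8.62 in LD, 9.17 in RUN, 9.20 in H-RUN and 9.15 in L-RUN. Plekha2, which binds membrane phosphoinositides, was 11.78 in CE, 11.84 in LD, 12.25 in RUN, 12.30 in H-RUN and 12.18 in L-RUN. The Plekha2 and Htra4 genes neighbor each other on chromosome 8, at chr8:25039144-25102376 and chr8:25024929-25038962, both on the minus strand. Robo3, a receptor for axon guidance, was 10.72 in CE, 10.74 in LD, 11.20 in RUN, 11.17 in H-RUN and 11.27 in L-RUN. Rgs4, which shortens signaling by G proteins, was 12.01 in CE, 12.03 in LD, 12.40 in RUN, 12.45 in H-RUN and 12.41 in L-RUN. Drd1a, the dopamine D1 receptor, was 8.17 in CE, 8.21 in LD, 8.56 in RUN, 8.64 in H-RUN and 8.45 in L-RUN. In all 6 genes, both CE and LD stood below each of the 3 runner libraries.

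In the second set, 8 genes were lower in CE than in RUN and L-RUN but not lower than in H-RUN. Ptgds, which encodes the prostaglandin D2 synthase that also carries lipids in the cerebrospinal fluid, had the largest difference of all, at chr2:25466709-25470046 (GRCm38, minus strand). It was 11.94 in CE, 11.64 in LD, 12.98 in RUN, 11.54 in H-RUN and 13.61 in L-RUN. The runner pools lay on opposite sides of CE, so the difference was -1.04 for all runners, -1.67 for L-RUN and 0.40 for H-RUN. Igf2, insulin-like growth factor 2, was 9.75 in CE, 9.65 in LD, 10.23 in RUN, 9.60 in H-RUN and 10.75 in L-RUN. Fmod, the proteoglycan fibromodulin, was 7.69 in CE, 7.58 in LD, 8.18 in RUN, 7.60 in H-RUN and 8.60 in L-RUN. Aldh1a2, which makes retinoic acid, was 7.31 in CE, 7.68 in RUN, 7.26 in H-RUN and 8.001 in L-RUN. Slc13a4, a sulfate transporter, was 7.17 in CE, 7.54 in RUN, 7.09 in H-RUN and 7.93 in L-RUN. The remaining genes of this set were Slc6a13, a GABA transporter, with -0.34 against RUN and 0.11 against H-RUN, Slc22a6, an organic anion transporter, with -0.31 and 0.05, and Apod, apolipoprotein D, with -0.32 and 0.17. Of these 8 genes, all but Apod are markers of the fibroblasts of the leptomeninges, the membranes that line the hippocampal fissure next to the DG.

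The markers of leptomeningeal fibroblasts were higher in L-RUN than in H-RUN. Of the list's 26 expressed members, 7 were called lower in CE than in RUN and 1 (Dcn) higher, where 0.295% and 0.539% of all expressed genes were. Against RUN, 21 members lay below 0 and 5 above, among these Dcn, Ogn (0.21) and Col1a1 (0.20). The median of the list was -0.13 against RUN, -0.31 against L-RUN and 0.09 against H-RUN, beside 0.00 for all expressed genes. L-RUN was the highest of the 5 libraries for 24 of the 26 members, against 24.1% of all expressed genes, and above CE for 25, against 48%. H-RUN was below CE for 20 of the 26, against 49.9% of all. The list was chosen with earlier results of these data known, so these shares describe it and carry no test. Summed over members on the linear scale and turned back into log2, the level was 13.33 in LD, 13.50 in CE, 13.99 in RUN, 13.26 in H-RUN and 14.45 in L-RUN. Without Ptgds it was 12.80 in LD, 12.90 in CE, 13.01 in RUN, 12.73 in H-RUN and 13.28 in L-RUN. Of the transcription factors in the list, Foxc1 was 7.08 in L-RUN against 6.78 in CE, and Tbx18 was 5.84 against 5.66. Foxc2 and Foxd1, also in the list, were under the filter. The part of leptomeningeal tissue in the second set was not tested. Leaving out the list, 72 genes were higher and 33 lower in CE.

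**Figure D3:**
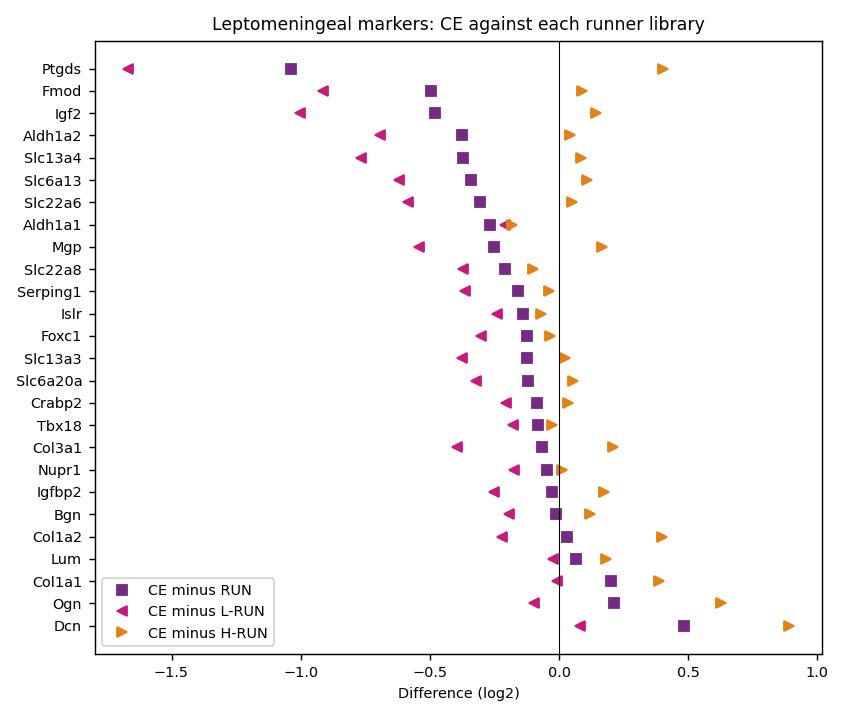
Difference (log2) between CE and each runner library for the 26 expressed markers of leptomeningeal fibroblasts, 1 row per gene, with RUN as squares, L-RUN as left triangles and H-RUN as right triangles. CE minus L-RUN is below 0 for 25 of the 26 genes, all but Dcn, and CE minus H-RUN is above 0 for 20.

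The promoters of the genes at the 2 ends of the difference are printed for their place in the genome and their sequence letters. They come from RefSeq on GRCm38.p6 and run from 250 bases before to 50 bases after the start, 5′ to 3′ on the strand of the gene. Windows were searched on both strands for the AP-1 motif TGANTCA, the cAMP response element TGACGTCA and the E-box CACGTG, and matches are in capitals. The Fibcd1 window is chr2:31845956-31846255 (minus strand) and holds none of the 3 motifs. The Ptgds window is chr2:25469700-25469999 (minus strand) and holds 1 AP-1 match, at base 216.
Fibcd1: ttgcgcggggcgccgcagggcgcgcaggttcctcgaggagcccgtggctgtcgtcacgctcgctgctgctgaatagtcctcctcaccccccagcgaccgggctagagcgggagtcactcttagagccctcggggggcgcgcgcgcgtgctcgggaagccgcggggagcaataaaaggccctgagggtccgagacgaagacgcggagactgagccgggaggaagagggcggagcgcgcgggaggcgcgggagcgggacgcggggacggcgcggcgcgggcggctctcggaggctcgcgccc
Ptgds: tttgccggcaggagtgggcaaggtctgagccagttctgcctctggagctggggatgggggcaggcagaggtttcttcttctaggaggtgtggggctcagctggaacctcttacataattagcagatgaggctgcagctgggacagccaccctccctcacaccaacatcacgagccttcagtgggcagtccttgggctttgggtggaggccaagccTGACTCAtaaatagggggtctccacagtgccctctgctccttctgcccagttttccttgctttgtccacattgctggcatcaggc
AP-1 letters stand in 7.81% of all 32851 windows, and counted by gene in 8.97% of all genes and 5.90% of the expressed ones. Among the genes called lower in CE that have a window, 2 of 32 hold them (6.25%), and among those called higher 3 of 51 (5.88%). A match is a description of the letters, and its absence says only that the letters are not in the window.

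In the 3 lists of extracellular matrix genes, 9 genes were called higher in CE and 1 lower, where 0.539% and 0.295% of all expressed genes were. Of 50 expressed glycoproteins, proteases and inhibitors, 5 were higher in CE and 0 lower (median 0.06): Thbs1, Timp2, Matn2, the heparan sulfatase Sulf2 (11.27 in CE and 10.93 in RUN) and the proteoglycan Spock2 (13.11 and 12.78). For Sulf2, LD was at 10.95 with the runners, and for Spock2 LD was at 13.19 with CE. Of 31 expressed collagens, 3 were higher and 0 lower (median -0.02). Col5a1, a fibrillar collagen, was 10.18 in CE, 9.74 in LD, 9.74 in RUN, 9.50 in H-RUN and 9.92 in L-RUN. Col6a1 and Col6a2, which form the beaded filaments of collagen VI, were 11.77 and 9.18 in CE against 11.46 and 8.85 in RUN. L-RUN came close to CE for both, at 11.71 and 9.06. Col6a1 missed the cut-off after quantile normalization, at 0.298. Set against L-RUN, 0 collagens were at least 0.3 higher in CE and 2 lower, Col3a1 (-0.40) and Col6a3 (-0.50), and set against H-RUN 6 were higher and 0 lower. Of 10 expressed small leucine-rich proteoglycans, Dcn was higher and Fmod lower (median 0.07). Tnc, the matrix glycoprotein tenascin C, differed by 0.27 and did not pass. Over the 3 matrix lists, 7 genes were at least 0.3 higher and 5 lower in CE than in L-RUN, where 1.38% and 0.509% of all expressed genes were. Against H-RUN, 11 were higher and 0 lower, where 0.708% and 0.354% of all were.

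Receptors and scaffolds of the glutamate synapse gave 4 calls, all of them higher in CE. Of all expressed genes, 0.539% were called higher and 0.295% lower. Of 18 expressed ionotropic receptor genes, 3 were higher in CE and 0 lower, with a median of 0.08. These were Grik3, Grin3a, the NMDA receptor subunit GluN3A, and Grid1, the delta receptor GluD1. Grin3a was 9.99 in CE, 9.96 in LD, 9.66 in RUN, 9.62 in H-RUN and 9.64 in L-RUN. Grid1 was 10.43 in CE, 10.25 in LD, 10.09 in RUN, 10.21 in H-RUN and 10.02 in L-RUN. The AMPA receptor subunits Gria1 and Gria2 differed by 0.07 and 0.02, and the obligatory NMDA subunit Grin1 by 0.09. Grin2a and Grin2b, which set the channel's kinetics, differed by 0.16 and 0.20. Among 21 metabotropic receptors and scaffolds, Shank1, a scaffold of the postsynaptic density, was higher in CE (13.14 against 12.80, with 12.96 in LD) and 0 were lower (median 0.08). When H-RUN took the place of RUN, the medians of these lists were 0.02 and -0.01, and with L-RUN 0.13 and 0.12. On the inhibitory side, Gabra3, the alpha 3 subunit of the GABA-A receptor, was 9.61 in CE, 9.44 in LD, 9.18 in RUN, 9.03 in H-RUN and 9.29 in L-RUN. It was the one call among 11 expressed GABA-A subunits, whose median was -0.06. Gabbr2, a subunit of the metabotropic GABA-B receptor, was also higher in CE, at 12.63 against 12.31 in RUN. Slc6a11, a GABA transporter of astrocytes, was 11.45 in CE and 11.06 in RUN.

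Ion channels and calcium signaling gave a few calls in each direction, where 0.539% of all expressed genes were called higher and 0.295% lower. Of 42 expressed potassium channel genes, Kcnf1, a modulatory subunit of voltage-gated channels, was 10.32 in CE and 9.92 in RUN. Kcnj16, an inward rectifier of glia, was 8.95 and 8.58, and the median of the list was 0.06. Kcnj2, an inward rectifier of neurons, was the one called lower, at 9.91 in CE, 9.94 in LD and 10.22 in RUN. In the calcium and phosphoinositide list, also of 42 genes, Atp2b4 and the T-type channel Cacna1i (10.70 against 10.37) were higher. Rasgrp1, which links calcium and diacylglycerol to Ras, was lower, with 13.03 in CE, 13.40 in LD, 13.42 in RUN, 13.63 in H-RUN and 13.16 in L-RUN. For Rasgrp1 the sedentary value stood with RUN and the L-RUN value neared that of CE. Scn4b, a sodium channel subunit that is not in these lists, had a like order, with 7.72 in CE, 8.003 in LD, 8.04 in RUN, 8.21 in H-RUN and 7.80 in L-RUN.

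The insulin-like growth factor system was called in both directions, where 0.539% of all expressed genes were called higher and 0.295% lower. Of 15 expressed members, Igfbp5 was higher in CE, and Igf2, Igfbp6 and Pappa were lower, with a median of -0.02. Igfbp6, a binding protein with preference for Igf2, was 8.23 in CE, 8.13 in LD, 8.58 in RUN, 8.58 in H-RUN and 8.68 in L-RUN. Pappa, a protease that cuts binding proteins and so frees the growth factor, was 7.14 in CE, 7.16 in LD, 7.50 in RUN, 7.61 in H-RUN and 7.28 in L-RUN. CE and LD lay together for both, below the runners. Igf1 differed by -0.06 and its receptor Igf1r by 0.07. Among 20 expressed neurotrophins, VEGF and FGF ligands and receptors, Fgfr2 was higher in CE (9.51 against 9.20) and 0 were lower. Bdnf, the brain-derived neurotrophic factor, was 11.08 in CE, 11.07 in LD, 11.33 in RUN, 11.43 in H-RUN and 11.26 in L-RUN, a difference of -0.25 that did not pass. Its receptor Ntrk2 differed by 0.21 and Vegfa by 0.18. Of 37 expressed TGF-beta, BMP and Wnt genes, 0 were called (median 0.04).

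**Figure D4:**
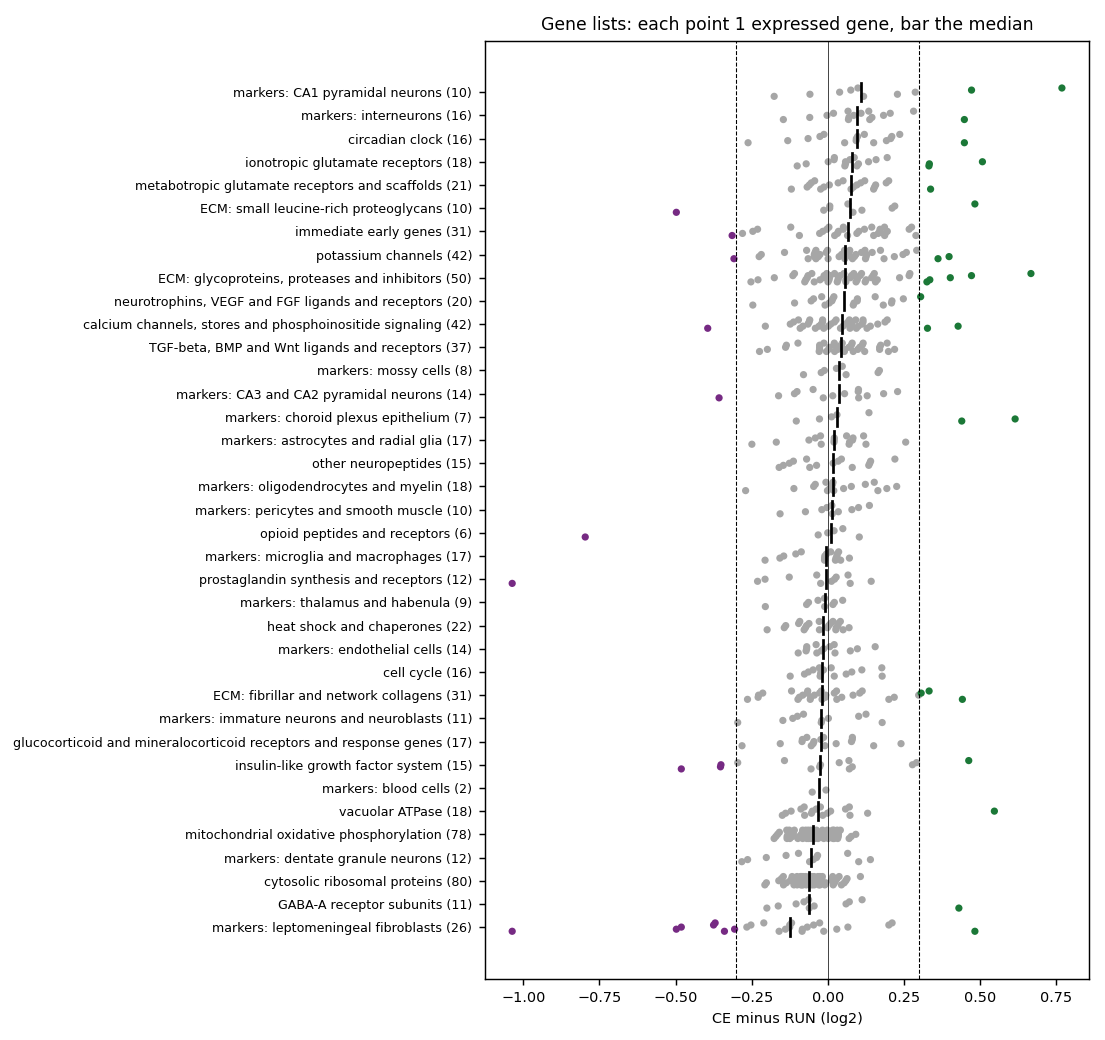
Difference between CE and RUN (log2) of the expressed genes of the 37 lists, 1 point per gene, ordered by the list's median (black bar), with the number of expressed genes in parentheses. Dashed lines mark 0.3 and -0.3; the medians run from -0.13 for leptomeningeal markers to 0.11 for CA1 markers, and most lists have none or 1 of their genes past a line.

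Immediate early genes, which neurons switch on after activity, had members on both sides of 0. Of 31 expressed, 0 were higher and 1 lower in CE, where 0.539% and 0.295% of all expressed genes were, and the median was 0.06. The one called was Nptx2, a secreted pentraxin that clusters AMPA receptors, with 9.51 in CE, 9.50 in LD, 9.82 in RUN, 9.92 in H-RUN and 9.70 in L-RUN. Its receptor Nptxr was called in the other direction, at 9.38 in CE, 9.04 in LD, 8.95 in RUN, 9.11 in H-RUN and 8.78 in L-RUN. Of the 31, 22 lay above 0 and 9 below. Several well-known members had positive differences that did not pass. Arc, which regulates AMPA receptor traffic, was 10.39 in CE, 10.43 in LD, 10.10 in RUN, 10.28 in H-RUN and 9.98 in L-RUN. The transcription factors Egr1, Nr4a3, Npas4 and Fos differed by 0.27, 0.28, 0.20 and 0.17. Ptgs2, the inducible cyclooxygenase, and Ier5 were on the negative side with -0.23 and -0.28. So were the well-known members Bdnf and Fosb, with -0.25 and -0.12. Set against L-RUN, 5 members were at least 0.3 higher in CE and 0 lower, where 1.38% and 0.509% of all expressed genes were. Against H-RUN, 0 were at least 0.3 higher and 3 lower, where 0.708% and 0.354% of all were.

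Genes of the circadian clock lay on both sides of 0, 11 of the 16 expressed above it and 5 below. Dbp, an output transcription factor of the clock, was called higher in CE, with 9.69 in CE, 9.43 in LD, 9.25 in RUN, 9.29 in H-RUN and 9.17 in L-RUN. Ciart is a repressor of the clock that the files list as Gm129. It was 7.51 in CE, 7.38 in LD, 7.20 in RUN, 7.18 in H-RUN and 7.17 in L-RUN. The clock list held it under the symbol Ciart, so it was not matched and is missing from the list's counts and median. The 3 runner libraries lay below both LD and CE for Dbp and Ciart. Of the 16 genes of the list that were matched and expressed, Dbp was the one called and the median was 0.10. Of all expressed genes, 0.539% were called higher and 0.295% lower. Nr1d1, which encodes the repressor Rev-erb alpha, was 11.72 in CE, 11.48 in LD and 11.49 in RUN. Per2 differed by 0.21, Hlf by 0.21 and Per1 by 0.15. Arntl, which encodes the activator Bmal1 and is expressed in antiphase to Dbp and Per2, lay on the other side, with 10.02 in CE, 10.15 in LD, 10.28 in RUN, 10.25 in H-RUN and 10.30 in L-RUN. The repressors Bhlhe41 and Cry1 were also below 0, at -0.13 and -0.06, and Clock, the partner of Bmal1, differed by -0.03. Collection times of the groups are not given in the sources used here.

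Promoters of the 2 called clock genes are shown because the activator complex of the clock binds the E-box CACGTG. The Ciart window is chr3:95882179-95882478 and lies on the minus strand, and that of Dbp is chr7:45704997-45705296 on the plus strand. The E-box letters, in capitals, stand at bases 135, 193 and 207 of the Ciart window and nowhere in that of Dbp.
Ciart: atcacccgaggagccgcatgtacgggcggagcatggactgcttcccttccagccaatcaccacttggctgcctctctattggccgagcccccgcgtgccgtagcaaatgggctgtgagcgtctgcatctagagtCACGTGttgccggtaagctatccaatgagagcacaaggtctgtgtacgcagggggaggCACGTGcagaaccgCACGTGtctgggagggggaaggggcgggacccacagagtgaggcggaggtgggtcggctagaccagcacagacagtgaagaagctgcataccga
Dbp: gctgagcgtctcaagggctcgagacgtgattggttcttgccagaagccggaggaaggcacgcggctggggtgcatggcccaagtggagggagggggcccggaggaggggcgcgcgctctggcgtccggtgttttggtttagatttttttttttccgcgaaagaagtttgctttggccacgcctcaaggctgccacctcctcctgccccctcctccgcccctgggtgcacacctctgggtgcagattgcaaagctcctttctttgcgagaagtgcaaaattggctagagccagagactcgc
The E-box is in 7.15% of all windows, and counted by gene in 8.09% of all genes and 11.7% of the expressed ones. It was found in 3 of the 51 genes called higher that have a window (5.88%) and in 2 of the 32 called lower (6.25%). The cAMP response element is in 1.79% of all windows and in 3.48% of the expressed genes, and it was found in 3 of the 51 and 1 of the 32.

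Among neuropeptides, the Penk difference had no counterpart of its size. Of 6 expressed opioid peptides and receptors, Penk was the one called, while Pdyn and Oprl1 differed by -0.03 and 0.10. Over all expressed genes, 0.834% were called in either direction. Of 15 other expressed neuropeptides, 0 were called. Npy was -0.15, Sst 0.14, Cck 0.13 and Vgf, a neurotrophin-induced peptide precursor, 0.22. Chgb, a protein of the secretory granule, was called lower in CE, at 13.77 against 14.11 in RUN and 13.93 in LD. Pcsk1, a convertase that cuts peptide precursors, was called higher, at 7.79 against 7.46 in RUN and 7.56 in LD. Trhr, the receptor for thyrotropin-releasing hormone, was 8.88 in CE, 8.60 in LD and 8.57 in RUN. Crym, which binds thyroid hormone, was 12.31 in CE, 11.97 in LD and 11.95 in RUN.

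Most of the remaining calls fall in no list, since 27 of the 73 genes called higher and 14 of the 40 called lower are in any. The unmatched Ciart is not among the 27. They are given here by what they encode, a grouping made after their values were seen. Several called higher are large adhesion molecules. Fat4, a giant cadherin of planar polarity signaling, was 11.70 in CE, 11.74 in LD, 11.33 in RUN, 11.32 in H-RUN and 11.41 in L-RUN, and its relative Fat1 was 9.82 in CE, 9.63 in LD and 9.47 in RUN. Tenm1, a teneurin that joins synaptic partners, was 9.22 in CE, 9.32 in LD and 8.87 in RUN. The receptor phosphatases Ptpru and Ptprt were 9.10 and 8.30 in CE against 8.75 and 7.97 in RUN, with LD at 9.04 and 8.28. Pcdh1, a protocadherin, was 11.06 in CE, 11.12 in LD, 10.74 in RUN, 11.001 in H-RUN and 10.36 in L-RUN. In these genes other than Fat1, LD lay within 0.11 of CE. For Pcdh1 the H-RUN pool was 0.06 below CE and the L-RUN pool 0.71 below it.

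Among regulators of signaling and transcription, Smo, the transducer of hedgehog signals, was 10.24 in CE, 10.10 in LD and 9.87 in RUN. Etv1, a transcription factor of the ETS family, was 10.72 in CE, 10.65 in LD and 10.34 in RUN. Foxo6, a forkhead factor of the hippocampus, was 9.57 in CE, 9.26 in LD and 9.20 in RUN. Zfp423, a zinc finger regulator of differentiation, was 9.15 in CE, 8.92 in LD and 8.81 in RUN. For Foxo6 and Zfp423 LD lay with the runners, and for Etv1 with CE. Pde1a, a phosphodiesterase driven by calcium and calmodulin, was 11.94 in CE, 11.86 in LD and 11.60 in RUN. Nos1ap, which binds the Nos1 enzyme, was 10.02 in CE, 9.95 in LD and 9.70 in RUN, with LD near CE. Imprinted genes beside Plagl1 and Igf2 were Dlk1, a noncanonical Notch ligand, at 6.59 in CE, 6.33 in LD and 6.24 in RUN, and Zdbf2, at 9.49, 9.32 and 9.18. Copines were called in both directions, Cpne7 and Cpne2 higher in CE (10.66 against 10.26 in RUN for the latter) and Cpne9 lower (9.15 against 9.46).

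Further genes called lower in CE came from several families. Cyp26b1, which breaks down retinoic acid, was 8.49 in CE, 8.97 in LD, 8.86 in RUN, 8.93 in H-RUN and 8.75 in L-RUN. CE was below every other library for it, and LD was the highest. Sema3c, a secreted guidance cue, was 9.18 in CE, 9.33 in LD and 9.51 in RUN. Ccl19, a chemokine, was 9.36 in CE, 9.50 in LD, 9.73 in RUN, 9.69 in H-RUN and 9.75 in L-RUN. Tnfrsf25, a death domain receptor, was 10.11 in CE, 10.09 in LD, 10.46 in RUN, 10.27 in H-RUN and 10.65 in L-RUN. Serinc2, a membrane protein of serine lipid synthesis, was 7.80 in CE, 7.79 in LD, 8.18 in RUN, 8.19 in H-RUN and 8.16 in L-RUN. Zfas1, a noncoding host of small nucleolar RNAs that the files list as 1500012F01Rik, was 9.29 in CE, 9.27 in LD, 9.66 in RUN, 9.63 in H-RUN and 9.63 in L-RUN. Ppl, the cytolinker periplakin, was 8.68 in CE, 8.58 in LD, 9.01 in RUN, 8.96 in H-RUN and 9.02 in L-RUN. Serinc2, Zfas1 and Ppl thus shared the order seen for Penk, with CE and LD together below all 3 runner libraries.

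Stress and housekeeping lists gave almost no calls. Of all expressed genes, 0.834% were called in either direction, so a short list without a call is usual. Of 17 expressed glucocorticoid and mineralocorticoid receptors and response genes, 0 were called (median -0.02), with Fkbp5 at -0.08, Sgk1 at -0.28 and Zbtb16 at 0.24. Of 22 heat shock genes and 16 expressed cell cycle genes, 0 were called. Among 12 expressed prostaglandin genes, Ptgds was the one called, and the median was -0.01. Cytosolic ribosomal protein genes had a median of -0.06, with 13 of 80 above 0 and 67 below. Genes of oxidative phosphorylation had a median of -0.05, with 23 of 78 above and 55 below. Of all expressed genes, 50.4% were above 0. With the trend along transcript length given below removed, the ribosomal median was -0.04 and the oxidative phosphorylation median -0.02. No ribosomal or respiratory gene reached 0.3. The ribosomal median was -0.11 against L-RUN and 0.01 against H-RUN. Rn45s, the precursor of ribosomal RNA, was called lower in CE, with 14.08 in CE, 14.26 in LD, 14.38 in RUN, 14.58 in H-RUN and 14.66 in L-RUN. Lars2, the mitochondrial leucine tRNA synthetase, had the same order, with 11.67 in CE, 11.78 in LD, 12.04 in RUN, 12.20 in H-RUN and 12.26 in L-RUN. For Rn45s and Lars2, RUN lay below both L-RUN and H-RUN, although it held RNA of the same mice. Their RUN values, and so the sizes of their differences from CE, are uncertain. The histone genes Hist1h1c and Hist1h2bc were -0.35 and -0.30 and belong to a family of near copies among which reads can be split.

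Markers of neurons and glia gave the check of the tissue. All 12 markers of dentate granule neurons were expressed, and 0 were called between CE and RUN. Prox1, the transcription factor that defines these neurons, was 11.86 in CE, 12.01 in LD, 11.76 in RUN, 11.93 in H-RUN and 11.61 in L-RUN. The granule list had a median of -0.05, with Trpc6 at -0.28 and Glis3 at 0.14. Of its 12 members, 3 lay above 0, Prox1 among them, and 9 below. Its median was -0.03 against L-RUN and -0.11 against H-RUN. Of 11 expressed markers of immature neurons, 0 were called, and Dcx, which marks neuroblasts, differed by -0.02. Eomes, a marker of progenitors, was under the filter. Interneuron markers had a median of 0.10 and 1 call of 16, Nos1. CA3 and CA2 markers had a median of 0.04 and 1 call of 14, Bok, which was 10.08 in CE, 10.44 in RUN, 10.62 in H-RUN and 10.25 in L-RUN. The lists of mossy cells, astrocytes, oligodendrocytes, microglia, endothelial cells, pericytes, the thalamus and blood had 0 calls and medians between -0.03 and 0.04. With 0.834% of all expressed genes called in either direction, 0 calls are usual for lists this short.

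Transthyretin stood apart among the markers of the choroid plexus, the epithelium that secretes cerebrospinal fluid. Ttr, its most abundant transcript, was 8.45 in CE, 7.83 in LD, 8.01 in RUN, 7.97 in H-RUN and 7.97 in L-RUN, so CE was highest and the difference was 0.44. Htr2c, called as well, is found both in this epithelium and in neurons. Of the 17 markers of the list, 7 were expressed, and the median of these was 0.03. Among the 7, 2 were called higher and 0 lower, where 0.539% and 0.295% of all expressed genes were. Defining markers were near the bottom of the range in every library, with Folr1 between 2.41 and 2.44, Otx2 between 2.29 and 2.31 and Kcnj13 between 3.55 and 3.64. Summed over the expressed members, the log2 level was 11.43 in LD, 11.57 in CE, 11.41 in RUN, 11.39 in H-RUN and 11.40 in L-RUN. The part of choroid plexus in the Ttr value was not tested.

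Transcript length ran along the difference. Of the expressed genes, 99.1% had a length, taken as the longest transcript of the gene in the GENCODE annotation of GRCm38. Across these 13427 genes, Spearman's rho between length and CE minus RUN was 0.20, given as a description, since all points share the same libraries. The median difference went from -0.02 in the fifth of genes with the shortest transcripts to 0.02 in that with the longest, a small range beside the cut-off of 0.3. The genes called higher had a median length of 4836 bp and those called lower 2941 bp, against 3518 bp for all. From the shortest to the longest, 4, 9, 12, 23 and 24 genes were called higher and 10, 10, 6, 10 and 3 lower. The trend was steeper when CE was set against L-RUN, from -0.03 to 0.05, and almost flat against H-RUN, with medians of 0.00 in both end groups. CE minus LD ran the other way, from 0.04 to -0.05. The part of length in the calls was not tested, and with the trend removed 64 genes were called higher and 42 lower, of which 63 and 38 were also called with it in place. Among the genes that then missed the cut-off were Cacna1i (0.295), Fgfr2 (0.297), Gabbr2 (0.299) and Hist1h2bc (-0.275).

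**Figure D5:**
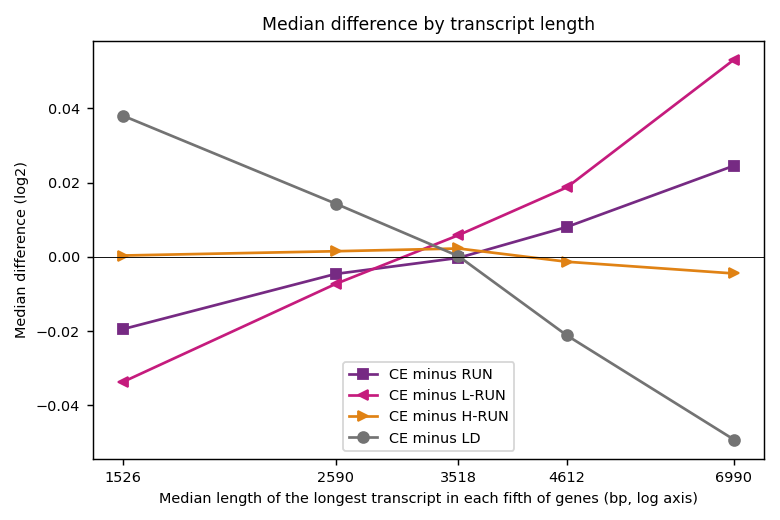
Median difference (log2) between CE and each of RUN, L-RUN, H-RUN and LD in 5 groups of genes of equal size, plotted at the group's median transcript length (bp, log axis). CE minus RUN goes from -0.02 to 0.02 with length, CE minus H-RUN stays near 0.00, and CE minus LD goes from 0.04 to -0.05.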

How the data were processed

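RNA of the mouse DG was extracted with TRIzol and an RNeasy kit and sequenced from TruSeq libraries; pooling left 1 library for each group. The authors trimmed the reads, mapped them to mm10 with TopHat2 2.0.10, assigned them to RefSeq genes with HTSeq, and normalized all libraries at once with DESeq2 1.10.1. They deposited regularized log values for each gene and library, on the log2 scale. Read counts were not used here, so depth and counting precision are unknown.

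Groups were taken from the labels. CE minus RUN was computed over genes with a mean of at least 5 and called at 0.3. The technical SD came from the median absolute deviation of RUN from the linear mean of L-RUN and H-RUN, in 10 bins of expression, with the variance of this residual taken as 1.5 times that of a library and that of a difference as 2 times. The text names the 15 genes of largest difference in each direction, genes at the filter's edge and, of 37 gene lists, the called members or up to 4 of largest difference. All other genes named (defining or well-known members of a list, such as Prox1, Gria1 or Fos, and called genes outside the lists) were chosen after their values were seen. The members and lists were chosen with earlier results of these data known. Comparisons of CE with RUN, L-RUN and H-RUN share the CE library. The length trend was removed with a lowess curve (fraction 0.3). Scripts were tested on simulated data. Positions and lengths came from GENCODE M21, matched by symbol. Work was done in python 3.11.15 with pandas 2.3.3, statsmodels 0.14.6 and scipy 1.17.1.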

Additional observations from a re-analysis of the deposited data

How the results depend on the processing

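The counts of 73 genes higher and 40 lower in CE stayed within 1.5 times under a mean of 7 (71 and 39), no filter, centring or a further cut-off at 3 technical SDs (73 and 40 each), quantile normalization (71 and 42), the computed runner mixture (76 and 40), the length trend removed (64 and 42) and H-RUN in place of RUN (96 and 48). They moved to 27 and 7 with a cut-off of 0.4, to 319 and 153 with 0.2, and to 187 and 69 with L-RUN in place of RUN. Of the 73 and 40 genes, 47 and 25 were also called with L-RUN and 53 and 26 with H-RUN. With H-RUN, the difference turned positive for Ptgds (0.40), Apod (0.17), Igf2 (0.14), Slc6a13 (0.11), Fmod (0.088), Slc13a4 (0.084), Slc22a6 (0.049) and Aldh1a2 (0.043). Over all expressed genes, L-RUN in place of RUN raised the calls higher in CE from 0.539% to 1.38%. Among the lists, such calls rose to 6 of 42 for potassium channels, 5 of 42 for the calcium and phosphoinositide list and 5 of 18 for ionotropic glutamate receptors. They rose to 5 of 10 for CA1 markers and 7 of 50 for matrix glycoproteins (3 with H-RUN, where 0.708% of all were). Of the 26 leptomeningeal markers, 14 were called lower with L-RUN and 0 with H-RUN, where 0.509% and 0.354% of all expressed genes were. The causes were not tested. Leaving out the leptomeningeal markers was chosen after seeing the data. No paired analysis was possible because each group is 1 library and no result comes from a test. Leaving out a replicate was not possible for the same reason. Depth is unknown, and its limit on the low genes cannot be given.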
